A study of Mus musculus with 4 samples.

Results

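The peaks described here are the N6-methyladenosine (m6A) peaks of Mettl3-deleted mouse macrophages whose exonic blocks shared no base with any peak called in the control macrophages, strand ignored. They number 8084 of the 21031 peaks in the KO list, which is 38.4% of that list, and are called unmatched KO peaks below. The other 12947 KO peaks are called matched. The deposited lists gave 4451 unmatched and 12258 matched peaks on the WT side. The values that chose these peaks are the 2 peak lists themselves, so every fold enrichment, peak p and KO over WT ratio below is a description with no test.

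The macrophages were grown from C57BL/6 bone marrow for 7 days in macrophage colony-stimulating factor (M-CSF). Both genotypes carried floxed Mettl3 alleles (Mettl3fl/fl), the WT cells with no Cre and the KO cells with LysM-cre, in which the lysozyme 2 gene drives the recombinase in myeloid cells. Each genotype had 1 immunoprecipitated (IP) and 1 input library, 4 libraries in all. No difference therefore has a replicate check, and the labels do not say whether a library held RNA of 1 or several mice. Cre acts only in cells that switch the lysozyme gene on, and the share of KO cells with the deletion was not measured here. Positions are those of the build mm10. The fields used here give no age or read totals, so the depth is unknown. Intervals are exact binomial (Clopper-Pearson) at 95%. They reflect the number of peaks alone and treat each peak as independent, although 665 of the unmatched KO peaks overlapped another KO peak and merging left 7759 separate regions.

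m6A is placed on messenger RNA mainly by a nuclear complex of the catalytic subunit METTL3 with METTL14, WTAP and further partners, often in the last exon around the stop codon and in the 3′ UTR. Reader proteins of the YTH family bind the mark and change the stability or translation of the transcript, and ALKBH5 and FTO can remove it. The anti-m6A antibody also binds the related cap-adjacent base m6Am, which another enzyme, PCIF1, makes next to the cap, so enrichment at transcript starts does not tell the marks apart. Enrichment in a peak list is a ratio of IP to input reads and not a count of methylated molecules.

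Sequence could be read for peaks at annotated transcript starts, where RefSeq (GRCm38.p6) gives the first 50 transcribed bases. Of unmatched KO peaks annotated to the 5′ UTR of their assigned gene, 179 covered such a window whole. The motif searched was the m6A consensus DRACH, that is any base but C, then A or G, then AC, then any base but G, with GGAC counted apart as a motif that overlaps it. DRACH stood on the transcribed strand of 79 of the 179 windows (44.1%, 36.7 to 51.7) and on the opposite strand of 78 (43.6%). The 524 windows under matched KO peaks held it in 39.1% and all 32851 RefSeq start windows of the same length in 54.4%. For GGAC the shares were 20.1%, 21.9% and 18.9% in the same order, and for an A as the first transcribed base 27.4%, 24.0% and 34.4%. The shares on the 2 strands were close over all 179 windows, and the intervals of unmatched and matched peaks overlapped. On the opposite strand DRACH stood in 37.8% of matched windows and 55.2% of all start windows. Its share under unmatched peaks was thus below that of all start windows on both strands. For the 56 windows under unmatched peaks at a false discovery rate (FDR) under 0.05 the shares were 42.9% (29.7 to 56.8) on the transcribed strand and 30.4% (18.8 to 44.1) on the opposite strand. A match is a description of letters, not a methylated site.

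The 7 sites below are first DRACH matches under unmatched 5′ UTR peaks among those with the lowest p at an FDR under 0.05, shown so that the letters under these peaks can be read. Each runs 5′ to 3′ with up to 8 bases on either side inside the start window, and capitals mark the motif.
Pcf11, minus strand, chr7:92669899-92669912: gGAACAcagacatt
Dexi, minus strand, chr16:10543005-10543019: cctcggggAGACAgc
Wfdc17, plus strand, chr11:83704088-83704105: caacatgaAGACAgccac
Ube4b, minus strand, chr4:149426609-149426629: gggtcacgTGACCcctttcaa
Calm3, minus strand, chr7:16923983-16924000: ccgttgagGGACCgttgg
Zfp655, plus strand, chr5:145231752-145231772: gtggccccGGACAggctggtg
Keap1, minus strand, chr9:21239320-21239332: AGACCcacgccct

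The peaks over these sites had fold enrichments from 1.20 at Wfdc17 to 5.12 at Keap1. Pcf11 encodes a factor of transcript 3′ end formation, Calm3 calmodulin and Keap1 the sensor that holds the oxidative stress factor NRF2 in check. The Dexi peak was 3.45-fold enriched, the Ube4b peak 2.95-fold, the Calm3 peak 2.72-fold, the Pcf11 peak 2.58-fold and the Zfp655 peak 1.63-fold. At Keap1 the motif began at the first transcribed base and at Pcf11 at the 2nd, whereas at Wfdc17 and Calm3 it began 41 bases in.

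Of 1005 microRNA hairpins in the RefSeq table, 38 lay under a KO peak, 7 of them under an unmatched KO peak and 2 of these whole. The mature forms of 1 of these are shown because its peak carries a microRNA name. Capitals mark the seed, bases 2 to 8.
mmu-miR-3098-5p: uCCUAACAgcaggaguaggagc
mmu-miR-3098-3p: uUCUGCUGccugccuuuagga

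The seeds of both arms differed. The peak at Mir3098 (chr6:125195730-125196269) was listed as 15.3-fold enriched with a −log10 p of 3.50, a pair of values listed for 64 KO peaks. The hairpin is 87 bases long and the peak 540, so most of that peak was outside the microRNA. The libraries were made from poly(A) RNA, and no small RNA was measured.

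Unmatched KO peaks were weaker and shorter than matched ones by the authors' own peak values, which the rule used. Their median fold enrichment was 2.62 (quartiles 1.80 and 5.90, range 1.06 to 1220) and their median exonic length 211 bases. Matched KO peaks had medians of 3.54-fold and 451 bases, and unmatched WT peaks 2.92-fold and 240 bases. A p of 1e-10 or lower was held by 285 unmatched KO peaks (3.53%), by 4853 matched KO peaks (37.5%) and by 61 unmatched WT peaks (1.37%). An FDR under 0.05 was held by 3220 unmatched KO peaks (39.8%), and the other 4864 were listed on a p of at most 0.05 alone. Matched KO peaks passed that FDR in 80.5% of cases.

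**Figure D1:**
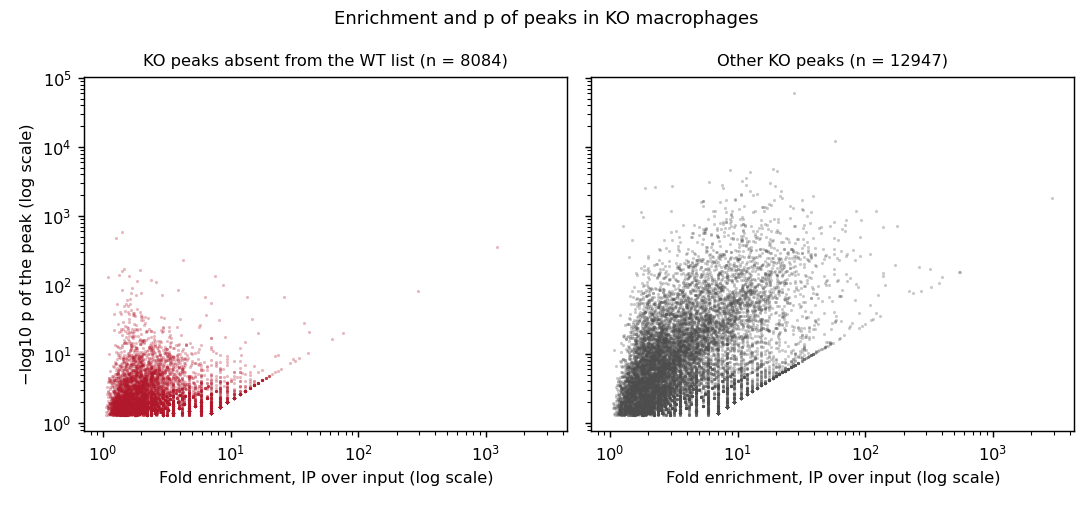
Fold enrichment of IP over input (x, log scale) against the −log10 p of each peak (y, log scale) for the 8084 KO peaks absent from the WT list (left) and the 12947 other KO peaks (right), each point 1 peak. Most unmatched peaks lie low, with only 285 at a p of 1e-10 or lower, and vertical stripes mark fold values that many peaks share.

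Many of these peaks had the same fold and p as others, to the digits deposited. A fold of 7.08 with a p of 0.0389 was listed for 785 KO peaks, 615 of them unmatched. A fold of 8.27 with a p of 0.0204 was listed for 522, of which 344 were unmatched, and a fold of 9.45 with a p of 0.0102 for 330, of which 194 were unmatched. Pairs of fold and p held by at least 20 KO peaks covered 2639 unmatched peaks (32.6%, 31.6 to 33.7) against 1430 matched peaks (11.0%, 10.5 to 11.6). Among unmatched peaks at an FDR under 0.05 the share was 6.58%. Where the assigned genes had an input level, the 455 genes of the shared-value peaks had a median of 3.19 FPKM in WT and 3.40 FPKM in KO input. FPKM is a read count corrected for the length of the transcript and the size of the library. These large folds thus went with low listed levels and modest p values. Whether a listed level covers every transcript of a gene is not stated.

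The position on transcripts, which the rule did not use, separated the lists. Of unmatched KO peaks 65.0% (63.9 to 66.0) lay in 3′ UTRs, 7.27% in 5′ UTRs and 27.8% in other exons. Matched KO peaks lay there in 63.5%, 12.1% and 24.3%, and matched WT peaks in 65.4%, 12.4% and 22.2%. Over all unmatched KO peaks the 3′ UTR share was thus near that of both matched sets. Unmatched WT peaks, the mirror set, lay in 3′ UTRs in only 43.7%, in 5′ UTRs in 14.4% and in other exons in 41.9%. At an FDR under 0.05 the 3′ UTR share was 78.2% for unmatched KO peaks and 43.8% for unmatched WT peaks, with intervals that did not overlap, and 67.2% for matched KO peaks. The unmatched KO peaks that did not pass that FDR lay in 3′ UTRs in 56.2%.

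**Figure D2:**
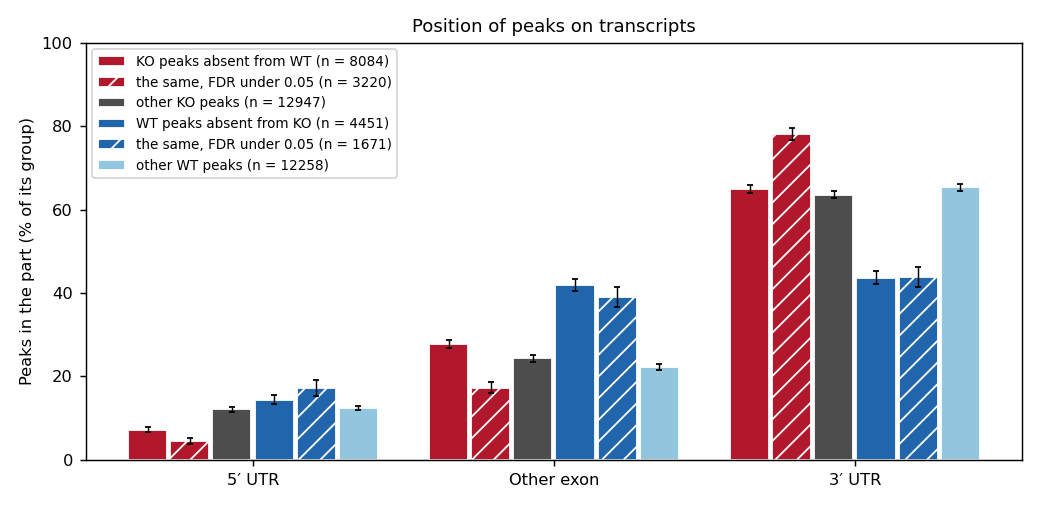
Share of peaks in 5′ UTRs, other exons and 3′ UTRs (y, % of each group), with 95% binomial intervals as error bars, for matched and unmatched peaks of both lists and for unmatched peaks at FDR under 0.05 (hatched). The 3′ UTR bar is highest for unmatched KO peaks at FDR under 0.05 (78.2%) and lowest for unmatched WT peaks (43.7%).

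Within each class of peak p, 3′ UTR peaks had the highest unmatched share. KO peaks were divided into 5 classes of p of equal size, and the share absent from the WT list was counted for each transcript part. In the 4th class, with a −log10 p between 4.53 and 13.7, 25.8% of 3′ UTR peaks were unmatched (24.2 to 27.4), against 9.54% of other exon peaks and 4.74% of 5′ UTR peaks. In the class of lowest p the shares were 4.86%, 2.66% and 0.694%. In the weakest class they were 72.6%, 68.3% and 61.0%. The order of the parts was the same in all 5 classes. Each class spanned a range of p, and fold, length and input level were not held equal within it.

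**Figure D3:**
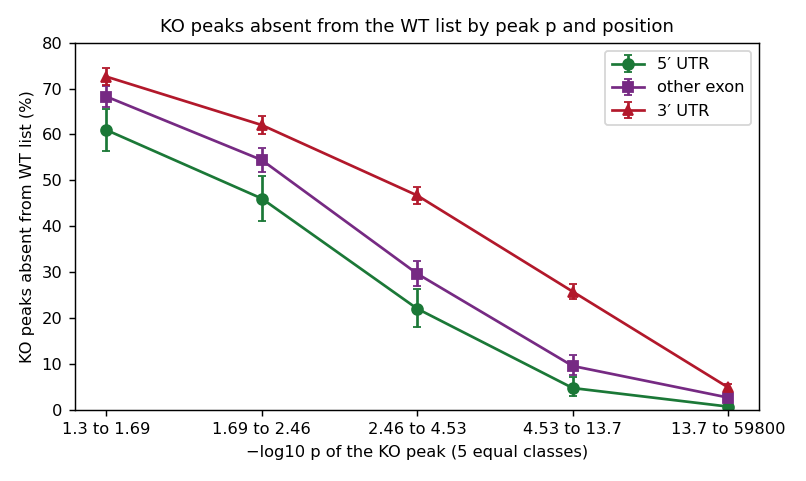
Share of KO peaks absent from the WT list (y, %) in 5 equal classes of −log10 p (x, weakest at left) for 5′ UTR, other exon and 3′ UTR peaks, with 95% binomial intervals. The 3′ UTR line is the uppermost in each class, at 25.8% against 4.74% for 5′ UTR peaks in the 4th class.

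Within 3′ UTRs the unmatched KO peaks sat close to the gene's end. For the 3427 that lay inside the RefSeq extent of their assigned gene, the median distance to the annotated 3′ end was 94 bases, and 59.6% (57.9 to 61.2) were within 500 bases. At an FDR under 0.05 the median was 4 bases and 71.5% were within 500 bases. Without an FDR limit, matched KO peaks had a median of 663 bases and 46.2% within 500, and matched WT peaks 634.5 bases and 47.0%. Unmatched WT peaks had 1290 bases and 32.8%. These sets were not measured at that FDR, so the median of 4 bases has no like comparison. Peaks called in the KO alone thus lay nearest to the ends of these poly(A)-selected transcripts, and peaks called in the WT alone lay farthest from them. Coverage along transcripts in the input, RNA integrity and read depth were not analysed here, so their part in this shift was not tested.

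The same direction appeared inside single genes. For 3844 unmatched KO peaks the nearest WT peak was assigned to the same gene, at a median of 1388 bases (quartiles 412 and 5240). Of these, 2207 lay on its 3′ side and 1603 on its 5′ side, 57.9% (56.3 to 59.5) on the 3′ side, and 34 lay between its blocks. For unmatched WT peaks beside KO peaks of the same gene only 39.2% (37.3 to 41.0) were on the 3′ side. Over all unmatched KO peaks the nearest WT block was a median of 5340 bases away (quartiles 982 and 30505), and 2047 peaks (25.3%) were within 1000 bases. On either side of the rule's limit, 12 unmatched peaks lay under 10 bases from a WT block, with a median of 2.07-fold, and 134 KO peaks shared under 10 bases with one and so counted as matched, with a median of 2.30-fold.

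These peaks were assigned to 6233 of the 11675 genes with a KO peak (53.4%), and peaks at an FDR under 0.05 to 2897 genes (24.8%). A single unmatched peak was held by 4777 genes, 2 by 1155 and 3 or more by 301. Of the 8084 peaks, 4473 were assigned to a gene that also had a WT peak, and 66.6% of those had a WT peak in the same part of the transcript. The other 3611 (44.7%, 43.6 to 45.8) fell in 2923 genes without a WT peak. Of all genes with a KO peak 27.1% had no WT peak, and since a KO peak in such a gene is nearly always unmatched by the rule, nothing is read from this count. It also depends on the authors' assignment. Only 79.2% of unmatched KO peaks whose gene was found in RefSeq lay inside it, against 83.9% of matched peaks. When genes were instead those whose RefSeq extent the peak overlapped, a key added after seeing the data, 36.7% of peaks lay in genes without a WT peak. By chromosome the unmatched share was between 34.1% on chromosome 19 and 47.1% on X, leaving aside Y and the mitochondrial genome with few peaks.

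Unmatched peaks recurred within some genes, counted without regard to gene length or to a gene's total of KO peaks. Cenpe, a kinetochore motor, held 7 such peaks of 3.04- to 15.3-fold, 3 of them at an FDR under 0.05. Dst, a giant cytoskeletal linker, held 7 with 1 at that FDR, and Pakap 6 at 5 start positions, where the 2 at that FDR are nearly the same region listed again. The genes Eif3j1, Fat1, Fhod1, Fmn1, Limd2, Nav2, Tulp4, Vcan and Zfp219 held 5 each. Tulp4 also had 7 WT peaks and Cenpe, Dst and Nav2 had 4 each, whereas Fhod1 and Vcan had none. For Nav2 none of the 5 passed that FDR. The predicted gene Gm38182 was listed 22 times at 4 start positions, and these rows lay in 1 region, so they are not separate peaks.

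Several of the lowest p values stood at small folds, most of them in genes with a high listed level. Fth1, the heavy chain of the iron store ferritin, had its peak at chr19:9984859-9985098 in the 3′ UTR, 1.42-fold enriched with a −log10 p of 593. Its listed input level was 3964 FPKM in WT and 3530 FPKM in KO. Psap, the precursor of lysosomal saposins, had a 1.27-fold peak at chr10:60302269-60302388 with a −log10 p of 476. In Itm2b, a membrane protein gene of 750 FPKM in WT and 754 FPKM in KO input, the peak was 1.34-fold with a −log10 p of 137. The ribosomal stalk gene Rplp1 had a 1.59-fold peak at 1524 and 1580 FPKM. Apoe, the apolipoprotein macrophages secrete, had a 1.10-fold exon peak at chr7:19696673-19696940 and 8313 and 8180 FPKM. The peak with a −log10 p of 158 that was assigned to Hormad1 lay in Ctss, which encodes cathepsin S, 1.41-fold enriched. Each of these folds was below 2, and the levels that are listed were high.

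Unmatched KO peaks below 2-fold with a p of 1e-10 or lower numbered 126 in 122 genes, and 115 of them (91.3%) were in 3′ UTRs. At that p and any fold the 3′ UTR share of unmatched KO peaks was 89.8%. Matched KO peaks of this kind were not counted, so the class is not shown to be particular to unmatched peaks. Of these 126 peaks 33.3% were in genes with a WT peak, against 55.3% of all unmatched KO peaks. At that p and any fold, 112 of 285 unmatched KO peaks were in such genes. Since the rule bears on this count, nothing is read from it. The 99 genes of the 126 peaks with a listed level had a median of 73.6 FPKM in WT and 75.4 FPKM in KO. They included housekeeping and macrophage transcripts such as Actb (cytoplasmic actin, 1.42-fold), Vim (vimentin, 1.62-fold), Ctsb (cathepsin B, 1.29-fold), Spp1 (osteopontin, 1.57-fold), Cdc42 (a small GTPase, 1.65-fold), Plin2 (lipid droplet coat, 1.57-fold) and Ccl9 (a chemokine, 1.49-fold). Fth1 has processed pseudogenes, as do Rplp1 and other ribosomal protein genes. How reads matching several places were treated was not stated in the labels, so the values of these genes are uncertain.

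Another group combined a larger fold with a low p. Gpx4, the selenoenzyme that reduces lipid peroxides, had a 4.25-fold 3′ UTR peak at chr10:80056142-80056439 with a −log10 p of 231, and no WT peak in the gene. Rbm3, a cold-induced RNA-binding protein, had a 7.60-fold peak at chrX:8141189-8142937 with a −log10 p of 136. Eno1, a glycolytic enzyme, had a 3.86-fold peak with a −log10 p of 83.3, and Sirpa, the macrophage receptor for CD47, a 2.36-fold peak with 118. The peak in Rpl7a, a ribosomal protein gene, was listed at 1220-fold with a −log10 p of 348 at chr2:26912636-26913318. It lay 62 bases from a WT peak that was assigned to the neighbouring gene Surf1, and no WT peak was assigned to Rpl7a. The Fth1 peak likewise lay 105 bases from a WT peak assigned to Best1.

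At the other end, 251 unmatched peaks in 239 genes were at least 10-fold enriched at an FDR under 0.05. Their listed genes were low, with medians of 3.58 FPKM in WT and 3.40 FPKM in KO over 57 genes, and 58.2% of the peaks were in 3′ UTRs. After Rpl7a, the largest folds in genes with a regular name were 62.6 in Smarce1, a subunit of the SWI/SNF chromatin remodeller, 41.3 in Tulp4 and 37.8 in Sumo2, which encodes a small ubiquitin-like modifier. Cflar, an inhibitor of caspase 8 activation, had a 31.9-fold exon peak at chr1:58722737-58723066 with 8.41 FPKM in WT and 8.65 FPKM in KO. Eif3j1, a subunit of translation factor eIF3 with a near-identical copy elsewhere in the genome, had peaks of 30.7- and 4.45-fold in its 3′ UTR and 2 further assigned peaks that lay in Spg11. Prrx1, Hnrnpa3 and Entpd4b had folds of 24.8, 23.6 and 23.6. Ube2q1 and Otulinl shared 1 fold of 20.1 and 1 −log10 p of 4.76. Hnrnpa3 was listed at 0.388 FPKM in WT and 0.664 FPKM in KO and Prrx1 at 0.0927 and 0.268 FPKM. Such low values may belong to a single transcript record rather than to the whole gene.

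The authors' deposited table of KO against WT peaks, which lists peaks with a p under 0.05 only, held 608 rows that overlapped an unmatched KO peak, and these rows covered 617 (7.63%) of the peaks. All 608 had a higher ratio in KO, where 30.4% of the table's 6050 rows did, and since the rule used this contrast nothing is read from that count. Of the 608 rows, 488 had an FDR under 0.05 in the authors' deposited table, where 79.6% of all rows did. Their median log2 ratio was 0.86 in the authors' deposited table (quartiles 0.64 and 1.17), against 0.52 for its higher rows elsewhere. Of the 608 rows, 560 (92.1%) were in 3′ UTRs, in the authors' deposited table, 41 in other exons and 7 in 5′ UTRs. The 3′ UTR share over all its rows is not given here, nor the share of all KO peaks that overlapped a row. Nothing about unmatched peaks is therefore read from the 92.1% or the 7.63%. The remaining 7467 unmatched KO peaks (92.4%) overlapped no row, and whether their difference was tested is unknown.

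Leaving out predicted genes, Rik names and pseudogenes, some of which had larger ratios, the largest log2 ratios among genes of at least 1 FPKM in both inputs were, in the authors' deposited table, 5.70 in Rpl7a, 5.59 in Sumo2, 4.63 in Cflar and 3.59 in Tulp4. Under the same limits they were followed, in the authors' deposited table, by 3.07 in Rbm3, 3.01 in Eif3j1, 2.31 in Rsrc2, 2.15 in Eno1, 2.08 in Gpx4 and 2.04 in Ehd1. The Ehd1 row did not pass an FDR of 0.05 in the authors' deposited table. The abundant transcripts named above had, in the authors' deposited table, ratios of 0.52 in Fth1, 0.43 in Itm2b, 0.59 in Rplp1 and 0.63 in Actb. Psap and Apoe overlapped no row. No row that overlapped an unmatched KO peak had a negative ratio.

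Input levels of the assigned genes were close in both genotypes. Over 1611 genes with an unmatched KO peak and a listed mean of at least 1 FPKM, the median of log2(FPKM + 1) in KO minus WT was 0.064 (95% order-statistic interval 0.057 to 0.073). All 3679 listed genes had a median of 0.072, a difference of the same size. For the 461 genes whose row in the table overlapped an unmatched peak it was 0.024, and for the 249 genes without a WT peak it was -0.0019 (-0.024 to 0.014). An increase of at least 1.5-fold was seen in 17 of the 1611 genes (1.06%), where the table's share was 1.22%, and a decrease of that size in 7 (0.435%), where it was 0.788%. Among the genes named here, S100a8 fell outside that range at 77.7 FPKM in WT and 46.4 FPKM in KO, and Ifitm3 at 144 and 217 FPKM. Levels are listed only for genes with a differential peak, so most genes of unmatched peaks have none.

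**Figure D4:**
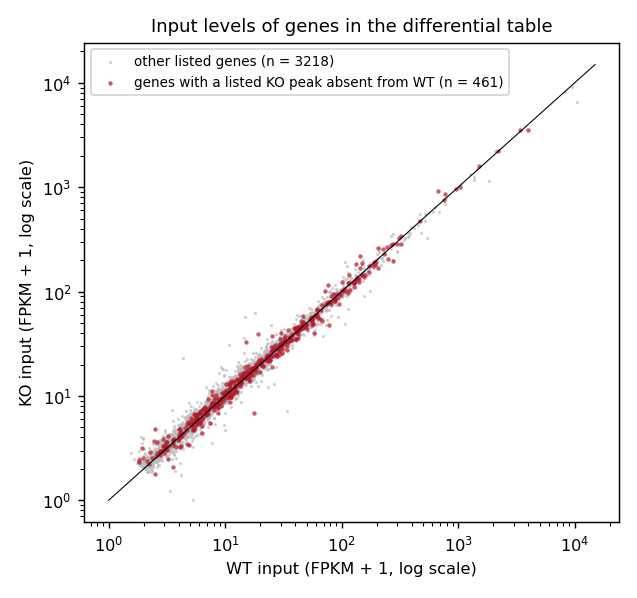
Input level in KO (y) against WT (x), both as FPKM + 1 on log scales, for the 3679 genes with a listed mean of at least 1 FPKM, with the 461 genes whose listed peak overlaps an unmatched KO peak in red and the line of equal levels in black. The red points lie along the line, with a median log2 difference of 0.024.

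Across 28 lists of genes for macrophage functions and other cell types, 298 genes had a KO peak, 156 of them (52.3%) an unmatched one and 86 (28.9%) an unmatched one at an FDR under 0.05. The shares over all genes with a KO peak were 53.4% and 24.8%, so the lists together were near the background. Counts below are genes with an unmatched peak of those with a KO peak, described without a test. A KO peak in a gene without a WT peak is nearly always unmatched by the rule. Nothing is therefore read from whether the counted genes had a WT peak.

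The m6A writer list held Mettl16 and Pcif1 beside genes of the METTL3 complex. Of its 11 genes with a KO peak 4 were counted, 2 of them at an FDR under 0.05. Mettl14, the partner of METTL3, had an 8.27-fold 3′ UTR peak at chr3:123368297-123368566 with a −log10 p of 2.97, and no WT peak. Mettl3 itself, the deleted gene, had a 1.35-fold 3′ UTR peak at chr14:52296090-52296658 with a −log10 p of 1.94 that did not pass an FDR of 0.05. No Mettl3 input level was used, and these peaks give no check of the deletion. Mettl16 had a 2.36-fold peak without passing that FDR. Both peaks assigned to Pcif1, which with Mettl14 made up the 2 genes at that FDR, lay in Zfp335. Of erasers and readers 8 of 11 genes were counted. Ythdf3, a reader linked to translation and decay, had a 3.31-fold peak, Prrc2a a 10.6-fold peak and Hnrnpa2b1 a 1.75-fold peak at an FDR under 0.05. The peaks of Fmr1, Ythdc1, Alkbh5 and Igf2bp2 did not pass it.

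Of macrophage identity genes 6 of 16 were counted, all 6 with a peak at an FDR under 0.05. Beside Sirpa these included a 1.5-fold peak at Adgre1, the gene of the F4/80 antigen. Adgre1 was listed at 247 FPKM in WT and 269 FPKM in KO input. A 1.39-fold peak assigned to Mpdu1 lay in Cd68. Of Toll-like receptor signalling genes 8 of 19 were counted, 2 at an FDR under 0.05: Irak1, the kinase below the receptors, at 4.13- and 1.66-fold, and the ubiquitin ligase Traf6 at 1.88-fold. Of negative regulators of inflammatory signalling 9 of 19 were counted, 5 at that FDR. Nfkbia, whose protein holds NF-κB in the cytoplasm, had a 1.82-fold peak with a log2 ratio of 0.80 in the authors' deposited table, and Zfp36, which promotes decay of AU-rich transcripts, a 1.78-fold peak. The 1.95-fold peak assigned to Ptpn6 lay in Grcc10.

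Of inflammatory cytokines and chemokines 4 of 6 were counted, 3 at an FDR under 0.05. Tnf had a 4.33-fold 3′ UTR peak at chr17:35199381-35199679, 2148 bases from the gene's WT peak, and 5.03 FPKM in WT against 5.85 FPKM in KO input. Ccl9 and Ccl4, both chemokines, had peaks of 1.49- and 1.63-fold and no WT peak. Of interferon-stimulated genes 10 of 19 were counted, 5 at that FDR, with Ifitm3, an antiviral membrane protein, at 1.38-fold. Of alternative activation genes 5 of 9 were counted, 2 at that FDR, Chil3 at 1.85-fold and Clec10a at 1.46-fold.

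Of phagocytosis and lysosome genes 8 of 15 were counted, 7 of them at an FDR under 0.05, among them Ctsb, Npc2, a lysosomal cholesterol carrier, at 1.12-fold and Cd36, a scavenger receptor, at 1.25-fold. Of cholesterol and lipid genes 13 of 20 were counted, 7 at that FDR, among them Apoe, Plin2 and Soat1, which esterifies cholesterol, at 1.27-fold. Of genes of antigen presentation by MHC class II 6 of 12 were counted, 2 at that FDR, H2-Ab1 at 1.41-fold and H2-DMa at 1.40-fold.

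Among growth and metabolism lists, cytosolic ribosomal protein genes had 16 of 23 counted, 15 of them at an FDR under 0.05, where that share over all genes was 24.8%. Beside Rpl7a and Rplp1, Rps18 had a 1.68-fold peak. Of nuclear respiratory chain genes 8 of 17 were counted, 6 at that FDR, with Cox6c at 1.37-fold and Atp5b at 1.73-fold. Of proliferation genes 10 of 14 were counted, 3 at that FDR. No WT peak was listed for 9 of the 10, nor for 2923 of all 6233 genes with an unmatched peak. The 3 at that FDR were Mcm2, of the replicative helicase, at 2.95-fold, the topoisomerase Top2a at 1.92-fold and the cyclin Ccna2 at 1.43-fold. Of mTOR and stress genes 8 of 13 were counted, 3 at that FDR, with the kinase Akt1 at 1.88-fold, its target Tsc2 at 2.47-fold and the kinase Rps6kb1 at 1.53-fold.

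Of immediate early genes 4 of 18 were counted, 2 at an FDR under 0.05, Btg2 at 2.42-fold and Fosl2 at 4.53-fold, and each of the 4 also had a WT peak. Of p53 targets 8 of 15 were counted, 6 at that FDR, with Bax, a pore former of apoptosis, at 1.53- and 1.22-fold. Of AU-rich decay and deadenylation genes 10 of 17 were counted, 3 at that FDR, with the deadenylase Cnot8 at 4.20-fold. Of genes that silence repeats 6 of 10 were counted, 3 at that FDR, with Dnmt3a at 1.22-fold, Trim28 at 2.08-fold and Atrx at 1.53-fold.

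**Figure D5:**
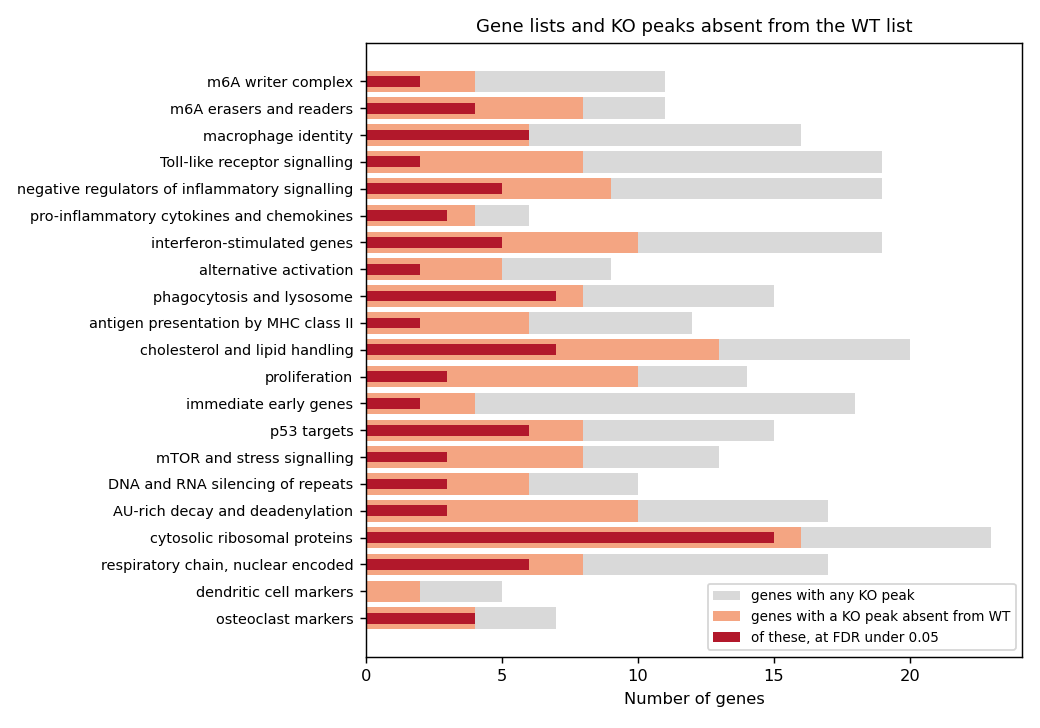
Number of genes (x) per list with any KO peak (grey), with a KO peak absent from the WT list (orange) and with such a peak at FDR under 0.05 (red), for lists with at least 5 genes with a KO peak. Cytosolic ribosomal proteins have the longest red bar, 15 of 23 genes.

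The lists of markers of other cell types were small, each with at most 7 genes with a KO peak. Of osteoclast markers 4 of 7 were counted, all 4 at an FDR under 0.05. None of the 4 had a WT peak, nor had 2923 of all 6233 genes with an unmatched peak. Acp5, tartrate-resistant acid phosphatase, had a 1.88-fold peak, and Ctsk, cathepsin K, a 2.72-fold peak in its 3′ UTR, while another peak assigned to Ctsk lay in Arnt. Macrophages can express both genes too. Of neutrophil markers 1 of 3 was counted, S100a8, at 2.06-fold with a −log10 p of 15.9. Of dendritic cell markers 2 of 5 were counted, of stromal markers 2 of 4, of blood progenitor markers 2 of 2 and of mast cell and basophil markers 1 of 2, none at that FDR. No B cell or erythroid marker was counted, of 1 each with a KO peak, and no T and NK cell marker had a KO peak. S100a8 was lower in KO input, and the part of other cells in these peaks was not tested.

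Selenoprotein genes, chosen after Gpx4 and Selenop had been seen among the lowest p, were counted as a further list. Of 24 such genes 16 had a KO peak, 11 an unmatched one and 8 an unmatched one at an FDR under 0.05, where the shares over all genes with a KO peak were 53.4% and 24.8%. Of their 14 unmatched peaks 12 were in 3′ UTRs, where 65.0% of all unmatched KO peaks lay. The selenocysteine insertion element stands in that part of the transcript, but no peak was compared with its position. Selenop, a secreted selenium carrier, had a 1.47-fold peak at chr15:3280299-3280508 with 957 FPKM in WT and 963 FPKM in KO, and the same region was listed again for the overlapping gene Ccdc152 at 1.96-fold. Msrb1, a methionine sulfoxide reductase, had a 1.95-fold peak, Gpx3, a secreted peroxidase, a 1.74-fold peak and Selenos a 1.63-fold peak. Since the genes were picked on these values, the counts are a description of where such peaks lay.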

How the data were processed

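The authors deposited a peak list per genotype, IP against input, holding, per the file headers, a fold enrichment (a ratio), log10 values of a p-value and of its false discovery rate, a score that was not used, and exonic blocks. The authors also deposited a differential table with a log2 ratio (enrichment in KO over WT), and a companion with the input FPKM of the listed genes. The submitters' processing notes name the build mm10 and, without their roles, edgeR, StringTie, ChIPseeker, HOMER, HISAT2 and fastp, and no peak caller is stated for these lists. Peaks were called by the authors on 1 library pair per genotype.

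Groups came from sample titles. Overlap needed 1 shared exonic base. List starts count from 0 and are printed from 1. The count was checked with bedtools 2.31.1 and the overlap code was tested on simulated data. Input differences used log2(FPKM + 1) where the mean reached 1 FPKM. Computation used Python 3.11.15 with scipy 1.17.1, pandas 2.3.3 and numpy 2.4.6, and figures used matplotlib 3.10.9. With 1 library per group, no test was run.

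The peaks, lists and rules were chosen with earlier results of these data known. Named genes were the writers, erasers and readers, the 12 highest folds at an FDR under 0.05, the 10 lowest p, the 10 genes with most peaks, the 10 highest ratios, and up to 3 peaks per list by lowest p, and the text names some of these. Results for a few of them are not reported here. Other genes were chosen after their values were seen. A planned motif search in the central 150 bases of each peak could not be made without a genome and was replaced by start windows. Alternatives changed the peak threshold, the overlap rule, the strand, the gene key, the pseudocount and the filter on low levels.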

Additional observations from a re-analysis of the deposited data

How the results depend on the processing

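The number of unmatched KO peaks was 2690 at a fold of at least 4 (31.6% of such KO peaks), 285 at a p of 1e-10 or lower (5.55%), 3220 at an FDR under 0.05 (23.6%) and 12299 where sharing needed 50% of both peaks (58.5%). It was 7890 by whole span (37.5%), 7709 with WT blocks widened by 100 bases (36.7%) and 8364 on the same listed strand (39.8%). At the stricter fold, p and FDR in turn, the 3′ UTR share was 54.9%, 89.8% and 78.2%, the 5′ UTR share 9.85%, 1.40% and 4.53%, the share in other exons 35.2%, 8.77% and 17.2%, and the share in genes without a WT peak 49.96%, 60.7% and 47.4%. By RefSeq gene extents, added after seeing the data, that last share was 36.7%. Rows of the authors' deposited table matched by the same start and end numbered 5, and 230 had a log2 ratio of at least 1. The median input difference was 0.076 with a pseudocount of 0.1 and 0.055 with no filter, against 0.064. List genes at the stricter FDR numbered 86. Stricter thresholds keep fewer peaks by construction, and the cause of the shift between transcript parts was not tested. Motif searches over whole peaks and central windows were not run, since no genome was used. No paired analysis was possible because each group had 1 library. The unknown depth limits what the absence of a peak from a list can show: an uncalled region in WT may still be enriched there.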
